A study of Mus musculus with 48 samples.

Results

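The cells described here were the 371 spleen cells that the deposited annotation calls dendritic cells, taken from 3320 annotated spleen cells and from 12096 annotated cells of the whole series, in which 441 cells carry this name in any organ. They were chosen by that annotation and their organ alone. The annotation had itself been made from the expression of these cells, so their levels against other cell types are a description and were not tested. Single-cell RNA had been measured by Seq-Well, in which single cells are captured in microwells with barcoded beads and transcripts are counted as unique molecular identifiers (UMIs). All 10 spleens came from male DBA1/J mice, an inbred strain that is prone to arthritis after collagen immunization. The methods describe the mice as aged 8 to 12 weeks when housed and do not give the age at death. Mice were killed once arthritis reached a set score or after a set time. Time since immunization may therefore also differ between the score groups. Healthy mice H3, H4, H6 and H7 had been injected with saline, and mice S1, S2, S3, S5, S6 and S8 had collagen-induced arthritis (CIA), raised with 100 µg bovine collagen II in complete Freund's adjuvant and a booster in incomplete adjuvant on day 20. Arthritis scores were 8 in S1, S2 and S3, from 4 to 5 in S5, from 3 to 4 in S6 and from 2 to 3 in S8. H3, S1, S2 and S3 carried the label 2CIA and the other mice the label CIA. Neither the labels nor the methods define these 2 marks, which are treated here as a possible batch, and among arthritic mice a score of 8 and the 2CIA label cannot be told apart. Organs had been cryopreserved, and the spleen cells had been strained and treated with red cell lysis buffer. Each mouse gave 1 spleen library, and none of the 3716 barcodes in the spleen libraries was shared between libraries.

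Dendritic cells take up, process and present antigen to T cells. Conventional dendritic cells are divided into a type 1 class, which is specialized for cross-presentation to CD8 T cells, and a type 2 class, which mainly serves CD4 T cells, whereas plasmacytoid dendritic cells are known for releasing type I interferon when their endosomal receptors meet nucleic acid. All of them descend from bone marrow progenitors, and the spleen of mice can also house blood formation outside the marrow, with progenitors of granulocytes and red cells.

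S2 supplied 218 of the 371 labelled cells, which was 58.8% of them. S1 gave 73 cells, H4 gave 20, S3, S6 and S8 gave 14 each, S5 gave 9, H3 gave 5, H7 gave 3 and H6 gave 1. The cells held 278611 UMIs in all, with a median of 632 UMIs and 329 genes per cell, and the summed UMIs per mouse ran from 1023 in H6 to 167226 in S2. Levels are given as CPM, the UMIs of a gene or list per 1000000 UMIs of all genes in the same cells. At this depth 3 UMIs, taken as the limit of what a count of 0 allows, correspond to 1452 CPM in H7, 775 in H3 and 17.9 in S2, for counting error only. Absence of a weakly expressed gene in a healthy mouse was therefore not detectable.

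Labelled cells made up 3.03% of annotated spleen cells in H3, 4.07% in H4, 0.752% in H6 and 1.38% in H7. Among CIA mice the share ran from 2.51% in S5 through a median of 9.24% to 23.9% in S2. Only S5 lay within the healthy range, and S1 and S2 stood above the other mice. The mean was 11.0% ± 7.91 (SD, n = 6 CIA mice) against 2.31% ± 1.52 (SD, n = 4 healthy mice), a difference of 8.70 percentage points that did not pass a two-sided exact permutation test over mice (p = 0.0619, smallest possible p 0.00476). As a share of annotated cells other than B cells the difference was 11.1 percentage points (exact permutation p = 0.0429). Leaving out S5 gave 10.4 percentage points (exact permutation p = 0.0159) and leaving out S8 gave 9.94 (exact permutation p = 0.0397), whereas without S2 the difference was 6.11 percentage points (exact permutation p = 0.0556). Among mice labelled CIA the difference was 3.49 percentage points (exact permutation p = 0.2, smallest possible 0.1), and among mice labelled 2CIA, with a single healthy mouse, it was 13.4 percentage points. Score 8 mice averaged 16.5% ± 7.42 (SD, n = 3) and mice with lower scores 5.56% ± 3.51 (SD, n = 3), which overlapped and did not pass (exact permutation p = 0.2, smallest possible 0.1).

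**Figure D1:**
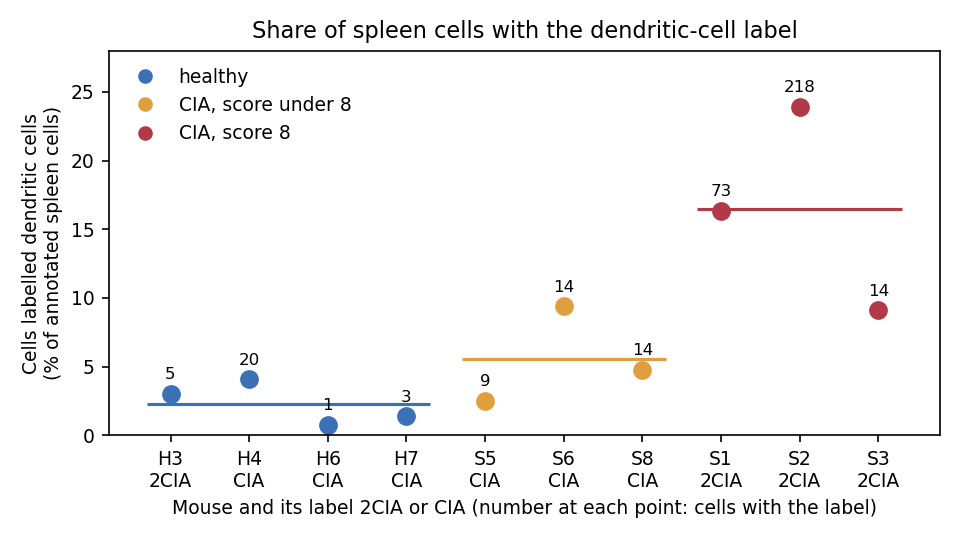
Share of annotated spleen cells that carried the dendritic-cell label (vertical axis, percent) in each mouse (horizontal axis, with its label 2CIA or CIA). Numbers at the points are labelled cells, and lines are group means. S2 reached 23.9% and healthy mice stayed at or below 4.07%.

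The marker genes that the study listed for dendritic cells were nearly absent from the counts. Siglech, a surface receptor of plasmacytoid dendritic cells, had 8 UMIs in 8 cells, of which 7 were in S2 and 1 in H4. Cd7, a membrane protein of T cells, NK cells and some progenitors, had 19 UMIs in 14 cells. Cebpa, a transcription factor of granulocyte and monocyte formation, had 2 UMIs, both in S2. Ifit1, an interferon-induced RNA-binding protein, had 13 UMIs in 12 cells, and Nfe2, an erythroid and megakaryocyte transcription factor, had 9 UMIs in 9 cells. Together these 5 genes had 183 CPM over all labelled cells, against 365 in spleen cells annotated as monocytes, 240 in NK cells, 151 in granulocytes, 134 in erythrocytes, 82.6 in T cells and 33.1 in B cells. The label marker list was lower in labelled cells than in monocytes in 8 of 9 mice with at least 3 cells of both, and higher than in B cells in 6 of 9 and in T cells in 6 of 8. Cells with 2 or more UMIs of the list were 7 of 371 (1.89%, 95% Wilson interval 0.917 to 3.84%) and 50 of 528 monocytes (9.47%), with median depths of 632 and 819 UMIs per cell. Each Wilson interval in the text treats the pooled cells as independent and leaves out the spread between mice. The study had assigned types by matching denoised counts to reference profiles of sorted cell populations. Marker genes enriched over all organs together then served to check these names or to name unmatched clusters. The values here are the undenoised counts of the spleen alone.

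As a list, genes that define plasmacytoid dendritic cells were higher under the monocyte label of the same spleens. The other types are deposited labels too, and their purity was not tested. Cells labelled monocytes had the highest plasma cell list of the 7 types (mean 52065 CPM). Cells labelled T cells had a mean of 379 CPM of the T cell list, against 1404 in NK cells, and the highest stem and progenitor list. The core list (Siglech, Ccr9, Cox6a2, Klk1, Pacsin1, Cd209d, Klra17, Smim5, Upb1 and Runx2) had 26 UMIs in the labelled cells, or 93.3 CPM, against 525 in monocytes, 90.3 in NK cells and 39.5 in B cells. Klk1, Cd209d and Upb1 had no UMI. Only 2 labelled cells, 1 in H3 and 1 in S2, held 2 or more UMIs of the list (0.539%, 95% Wilson interval 0.148 to 1.94%). The same count was found in 59 of 528 monocytes (11.2%), 5 of 471 NK cells (1.06%) and 2 of 1182 B cells (0.169%). By this share the labelled cells lay between NK cells and B cells, which should lack these genes. As a mean over 9 mice the list stood higher, at 225 CPM against 513 in monocytes, 80.2 in NK cells and 51.7 in B cells. It was above NK cells in 5 of these mice and below them in 3. After every cell had been thinned to 400 UMIs, no labelled cell held 2 UMIs of the list, which allows a share of up to 0.809%, whereas 40 monocytes (7.58%) still did. By mouse the core list stood at 1033 CPM in H3, 219 in H4 and 484 in H7, and among CIA mice from 0 in S3, S5 and S6 to 182 in S8. These healthy values rest on a few UMIs each, since 3 UMIs already give 775 in H3 and 1452 in H7, and none of the list's genes had counts enough for a test. Siglech averaged 12.8 ± 26.5 CPM (SD, n = 9 mice) in labelled cells and 226 in monocytes. Of the genes that plasmacytoid cells share with B cells, Ly6d, a surface protein, had 91 UMIs, Irf8, a transcription factor needed for both plasmacytoid and type 1 cells, had 49 and Blnk, a B cell signalling adaptor, had 26. This shared list averaged 1096 ± 575 CPM in labelled cells and 1670 in monocytes of the same 9 mice. Among sensors of nucleic acids and their partners, Irf7, the master factor of interferon production, had 25 UMIs, Unc93b1, the chaperone of endosomal receptors, had 13, Myd88 had 7 and Irf5 had 3.

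Genes of conventional cells, and of the type 1 class, followed the same order. Zbtb46, a transcription factor of the conventional lineage, and Xcr1, the chemokine receptor of type 1 cells, had no UMI in any labelled cell, and neither had Cd209a, Clec4a4, Mgl2 and Esam of the type 2 list. Itgax, which encodes CD11c, and Clec9a, a receptor for dead cells on type 1 cells, had 1 UMI each, and Flt3, the growth factor receptor of the lineage, had 6. The type 1 list had 136 CPM in labelled cells and 704 in monocytes, and it was lower in labelled cells in 9 of 9 mice. A single labelled cell of 371 (0.270%) held 2 or more of its UMIs, against 73 monocytes (13.8%). The list common to conventional cells had 937 CPM in labelled cells and 4453 in monocytes, and it too was lower in labelled cells in 9 of 9 mice. Most of its UMIs came from Cst3, a protease inhibitor that monocytes also express (149 UMIs), and Cd24a, a surface protein of many immature blood cells (82 UMIs).

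The type 2 list stood closer, at 230 CPM in labelled cells and 310 in monocytes, and was lower in labelled cells in 7 of 9 mice. Its 64 UMIs were mainly those of Clec12a (40 UMIs), a myeloid lectin receptor that granulocytes also carried at a mean of 180 CPM, and Irf4 (13 UMIs), a factor that B cells carried at 144. Of 9 cells with 2 or more UMIs of this list, 8 were in S2 and 1 in H4, and 5 of them also held progenitor genes. Without S2 the share fell from 2.43% to 1 of 153 cells (0.654%). Genes of mature migrating dendritic cells had 284 CPM in labelled cells, 281 in monocytes and 724 in B cells. Their UMIs came mostly from Cd83 (37 UMIs), an activation antigen that B cells share, and Ccr7 (27 UMIs), the homing receptor for lymphoid tissue, whereas Ccl17 and Ccl22 had none and Fscn1 had 1. The migratory list was higher in labelled cells than in monocytes in 6 of 9 mice and lower than in B cells in 8 of 9. Costimulatory genes had few UMIs, with 9 each of Cd86 and Icosl, 8 of Cd274 and none of Cd80, besides the Cd83 already given. As a list they averaged 370 CPM in labelled cells, 356 in monocytes, 585 in B cells and 168 in NK cells of the same 9 mice, and were higher than monocytes in 6 and lower than B cells in 8. No labelled cell held a UMI of Il6, Il10, Il12b, Il15 or Il23a.

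Genes for MHC class II, which displays peptides to CD4 T cells, were present at a middle level. In labelled cells the list had 6450 CPM, against 14804 in B cells, 12382 in monocytes, 4046 in NK cells and 1585 in granulocytes, and it was below monocytes in 9 of 9 mice and above granulocytes in 8 of 8. Cd74, the invariant chain, had 749 UMIs in 267 cells, H2-Aa had 491 in 229 cells and H2-Ab1 had 321 in 183 cells. Cd74 stood at 3100 CPM in H3, 5620 in H4 and 2420 in H7, and among CIA mice it ran from 1287 in S3 and 2368 in S8 to 3152 in S6. All healthy values lay within or above the CIA range.

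**Figure D2:**
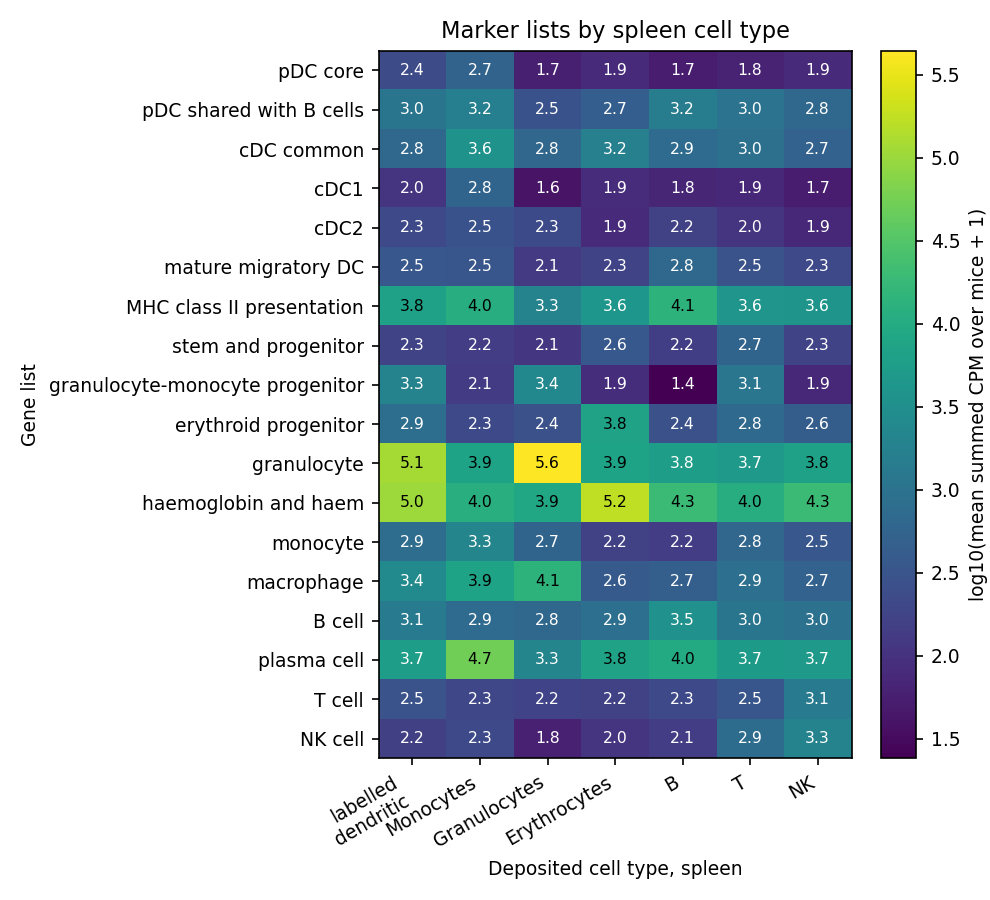
Summed level of each marker list (rows) by deposited spleen cell type (columns), as log10 of the mean CPM over mice with at least 3 such cells, plus 1. In the labelled column the granulocyte and haemoglobin lists were highest, while the pDC core, cDC common and cDC1 rows peaked in monocytes.

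The most abundant transcripts under the label were those of granulocytes and red cells. A list of 10 granulocyte genes took up 126226 CPM over all labelled cells, against 447503 in spleen granulocytes, 9702 in monocytes and 4887 in NK cells. S100a8 and S100a9, which together form the antimicrobial protein calprotectin of neutrophils, had 21701 UMIs in 360 cells and 10229 UMIs in 350 cells. Camp, the cathelicidin of secondary granules, had 1375 UMIs, and Ngp, another granule protein, had 816. In the labelled cells this list stood at 204857 CPM in H3, 73931 in H4 and 142304 in H7. In CIA mice it was 44448 in S8, 65245 in S5, 68696 in S6, 131057 in S1, 136002 in S2 and 187627 in S3. The groups overlapped, with H3 above every CIA mouse and S5, S6 and S8 below every healthy mouse. In 9 of 9 mice the level was higher in labelled cells than in monocytes, erythrocytes, B cells and NK cells, and in 8 of 8 mice it was lower than in granulocytes. NK cells, which should lack these transcripts except as free RNA, held 833 to 1385 CPM of the list in healthy mice and 2540 to 28786 in CIA mice. The list took up a median of 10.5% of the UMIs of a labelled cell and 0.215% of those of an NK cell.

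Haemoglobin and haem genes took up 117077 CPM of the labelled cells, 210266 of erythrocytes and 21970 of NK cells. Hbb-bs, an adult beta-globin gene, had 23254 UMIs in 361 of the 371 cells. The red cell genes were accompanied by low counts of red cell precursor genes. Car2, a carbonic anhydrase, had 157 UMIs, Tfrc, the transferrin receptor, had 46 and Blvrb, a reductase of haem breakdown, had 44, whereas Gata1 and Klf1, the main erythroid transcription factors, had 2 and 3. The erythroid progenitor list was at 1109 CPM in labelled cells and 8068 in erythrocytes.

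A cell was counted as rich in a list when at least 5% of its UMIs came from it. By that measure 128 labelled cells (34.5%) were rich in both granulocyte and haemoglobin transcripts, 144 (38.8%) in granulocyte transcripts alone, 58 (15.6%) in haemoglobin alone and 41 (11.1%) in neither. Of the 128 cells rich in both, 101 were in S2, 26 in S1 and 1 in S3, and none was found in the healthy mice or in S5, S6 and S8. Cells rich in both were 19 of 245 granulocytes (7.76%), 5 of 261 erythrocytes (1.92%), 5 of 528 monocytes (0.947%) and 0 of 1182 B cells. Their median depth was 578.5 UMIs, below the 670 UMIs of cells rich in granulocyte transcripts alone and the 729.5 UMIs of those rich in haemoglobin alone. Doublets were not called, and the part of paired capture or of free RNA in these cells was not tested. Without S2, 27 of 153 labelled cells (17.6%) were rich in both.

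**Figure D3:**
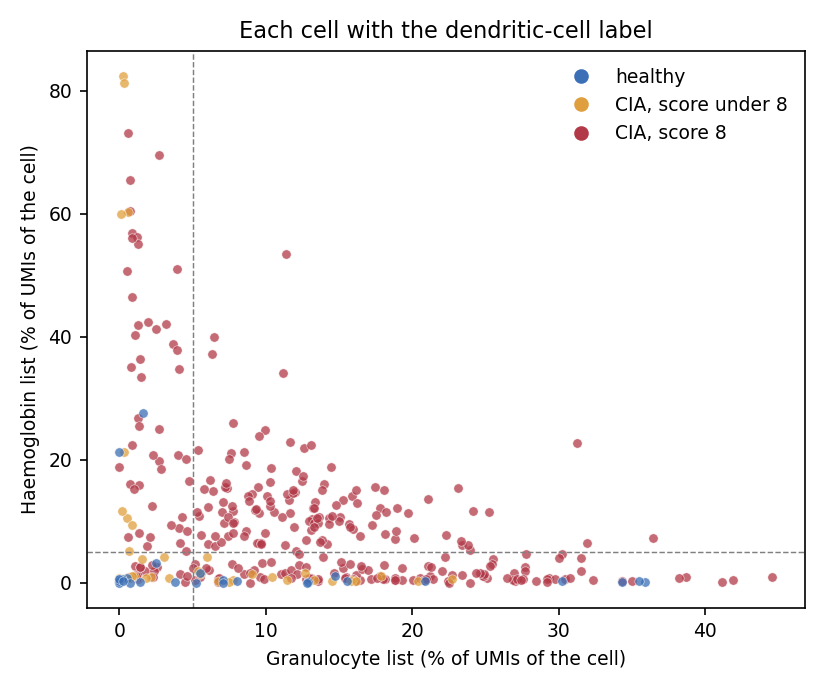
Share of the UMIs of each labelled cell from the granulocyte list (horizontal axis, percent) and from the haemoglobin list (vertical axis, percent), 1 point per cell, coloured by mouse group. Dashed lines mark 5%. The 128 cells above both lines came from S1, S2 and S3, while cells with the most haemoglobin had few granulocyte UMIs.

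**Figure D4:**
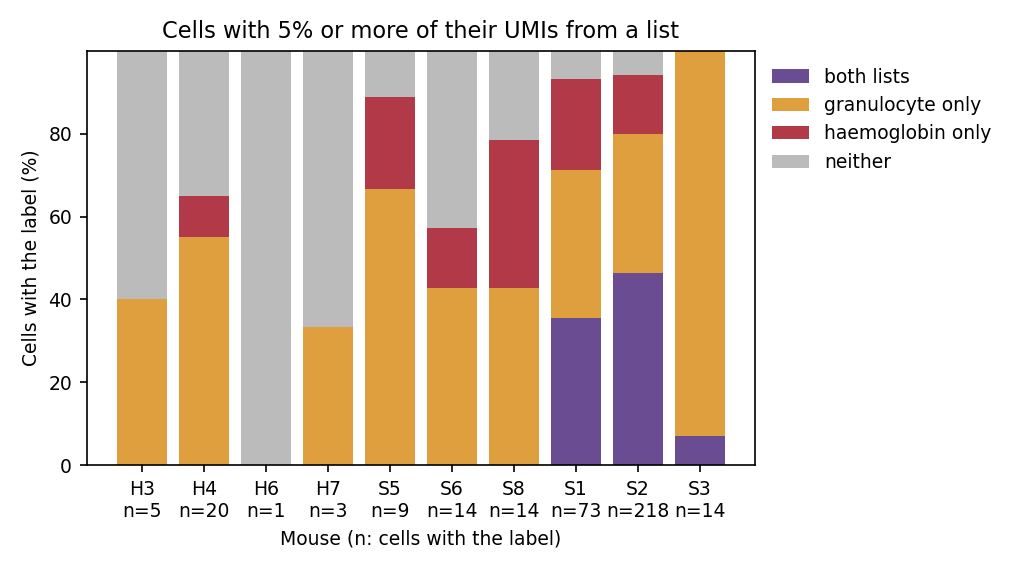
Labelled cells of each mouse (horizontal axis) divided into those with at least 5% of their UMIs from both lists, from the granulocyte list alone, from the haemoglobin list alone, or from neither (vertical axis, percent of cells). Cells rich in both lists appear in S1 (35.6%), S2 (46.3%) and S3 (7.14%).

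Of the progenitor lists, that of the granulocyte and monocyte line had the most UMIs under the label. Elane, neutrophil elastase, had the highest ratio of any gene with at least 30 UMIs between labelled cells and the next spleen type. It averaged 539 ± 701 CPM (SD, n = 9 mice) against 218 in cells labelled T cells, a ratio of 2.41 after 10 was added to each. In H4 and S1 the cells labelled T cells held more Elane than the labelled cells (333 against 73.0 CPM and 397 against 304). That T cell label was itself mixed, as given above. Fcnb, a ficolin of neutrophil precursors, had 170 UMIs, Mpo, myeloperoxidase, had 105, Prtn3, proteinase 3, had 104, Ms4a3, a membrane protein of granulocyte and monocyte progenitors, had 80, and Ctsg, cathepsin G, had 66. Several of them were higher under other labels. Mpo averaged 141 CPM against 322 in T cells, Prtn3 226 against 293 in T cells and Fcnb 595 against 1532 in granulocytes. Ms4a3 averaged 253 against 220 in granulocytes, and Ctsg 168 against 151 in T cells. Elane spans chr10:79886247-79888215 on the plus strand of GRCm38 in GENCODE vM21, and Prtn3 lies beside it at chr10:79874476-79883174 on the same strand. Mpo lies at chr11:87793581-87804413, also on the plus strand. The stretches of 40 bases printed next show what the promoters of these azurophil granule genes share, from RefSeq promoters on GRCm38.p6. They are 5′ to 3′ on the plus strand, with GAGGAAGT, which holds the GGAA core that factors of the ETS family such as PU.1 bind, in capitals.
Elane, chr10:79886201-79886240: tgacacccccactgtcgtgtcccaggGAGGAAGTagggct
Prtn3, chr10:79879546-79879585: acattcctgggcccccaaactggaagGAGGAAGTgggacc
Mpo, chr11:87793534-87793573: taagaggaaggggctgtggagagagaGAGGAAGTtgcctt

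The capitals begin 85 bases before the RefSeq start of Elane, 95 before that of Prtn3 and 224 before that of Mpo. GENCODE places the first base of Elane and of Mpo downstream of these stretches, and that of Prtn3 upstream, so the Prtn3 stretch lies inside the longest gene span there. On either strand the letters were found in 3 of the 8 list genes with a promoter in the table (Ctsg, Ms4a3, Cebpa, Gfi1 and Fcnb lacked them) and in 3.20% of all 32851 promoters. The letters were chosen after the sequences had been read, and a match does not show that a factor was bound.

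**Figure D5:**
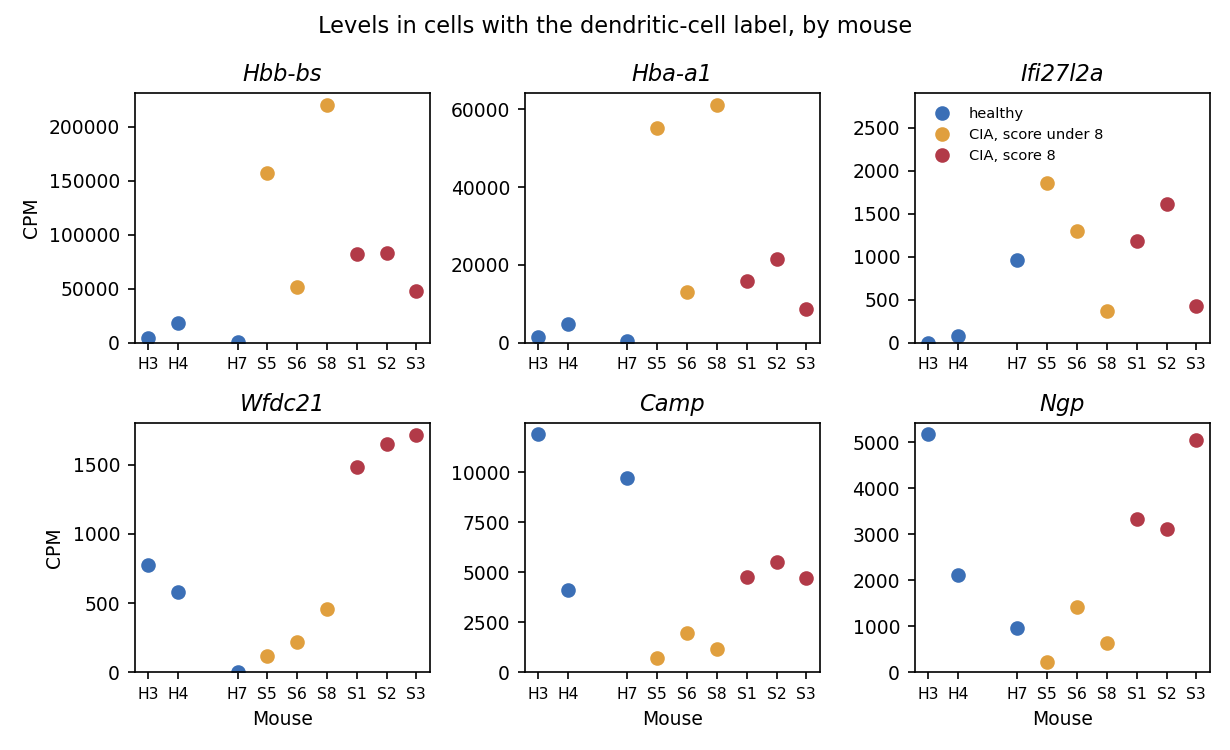
Level of 6 genes in labelled cells (vertical axis, CPM, linear scale) in each mouse with at least 3 labelled cells (horizontal axis), 1 point per mouse. Hbb-bs and Hba-a1 were higher in all 6 CIA mice than in the 3 healthy mice, and Wfdc21, Camp and Ngp were higher in S1, S2 and S3 than in S5, S6 and S8.

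The list of granulocyte and monocyte progenitor genes had 789 UMIs in labelled cells, 2832 CPM, close to the 2920 of spleen granulocytes and above the 1607 of T cells and 169 of monocytes. It stood at 5167 CPM in H3, 511 in H4 and 968 in H7, and among CIA mice from 0 in S8 and 109 in S6 to 3875 in S2 and 5897 in S3. Both groups thus held high and low mice, and the list was above monocytes in 8 of 9 mice. Cells with 2 or more of its UMIs numbered 62 of 371 (16.7%, 95% Wilson interval 13.3 to 20.8% for counting of pooled cells). Of these, 41 were in S2, 7 each in S1 and S3, 2 each in H3 and H4, and 1 each in H6, H7 and S5. Among CIA mice the share ran from 0% in S6 and S8 through 18.8% in S2 to 50.0% in S3. Pooled over mice in the same way, it was 36.7% in granulocytes, 16.6% in T cells, 2.46% in monocytes, 0.212% in NK cells and 0.0846% in B cells. Thinned to 400 UMIs, 43 labelled cells (11.6%) still met it. A single cell of S2 with 4343 UMIs, the deepest under the label, held 179 of the 789 UMIs, among them 57 of the 240 of Elane. Without that cell the list stood at 2224 CPM, and without S2 altogether at 1266.

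Cells with 2 or more progenitor UMIs differed from the other labelled cells in more than those genes. S phase genes reached 2 UMIs in 21 of 62 such cells (33.9%) and in 26 of 309 others (8.41%), and genes of G2 and M phase in 53.2% and 37.2%. Their median depth was higher, at 731.5 against 608 UMIs, which was not adjusted for. Granulocyte transcripts took up a median of 15.2% of their UMIs against 9.93%, and haemoglobin 1.82% against 6.04%. None of the 62 held 2 UMIs of the plasmacytoid core list. The broader stem and progenitor list was sparse under the label, with no UMI of Cd34, Hoxa9, Mecom or Mycn, 2 of Kit and at most 14 of any gene (Lmo2). It had 162 CPM in labelled cells, 312 in erythrocytes and 608 in T cells. Megakaryocyte genes had 16 UMIs, 14 of them Pf4, a platelet chemokine, and basophil and mast cell genes had 24, of which 22 were Hdc, histidine decarboxylase. In all, 303 of 371 labelled cells held 2 UMIs of neither the progenitor list, the plasmacytoid core nor a conventional type 1 or type 2 list.

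Other genes with a high ratio to every other type were few and modest. Il1b, an inflammatory cytokine, averaged 291 CPM against 130 in monocytes, with 56 UMIs in 35 cells and 16 of them in H4. Cxcr2, the neutrophil chemokine receptor, averaged 119 against 82.9 in granulocytes, with 36 UMIs in 4 mice. Dok3, a signalling adaptor, averaged 164 against 95.1 in B cells, and Klf2, a transcription factor of quiescence, 709 against 523 in granulocytes. The remaining genes of the 12 highest were 2310001H17Rik, Dph3, Ndufb10, Supt20 and the small RNA annotations Gm25360, Mir6236 and Mir5136, with ratios from 1.31 to 2.02. After Elane no ratio exceeded 2.15.

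Grouping the 371 cells by their own counts gave 7 clusters, which are described with no test. The largest, 105 cells of which 95 were in S2 and 10 in S1, held medians of 12.6% granulocyte and 11.7% haemoglobin UMIs, with Ltf, lactoferrin, and Lcn2, lipocalin 2, among its leading genes. A cluster of 50 cells from 8 mice was led by Retnlg, Wfdc17, Cxcl2 and Il1b, genes of mature neutrophils. A cluster of 44 cells from 9 mice held Ighm, Igkc, Jchain and Mzb1, genes of antibody-producing B lineage cells, with 1.22% granulocyte UMIs and the highest MHC class II level of the 7 (11167 CPM). Another of 44 cells was led by haemoglobin genes at a median of 39.4% of UMIs, with Alas2 and Fech of haem synthesis. A further cluster of 44 cells was led by Elane, Fcnb, Cd63, Prtn3 and Mpo and had the highest median depth (938.5 UMIs). It held 25 of the 62 cells with 2 or more UMIs of the progenitor list. It drew 26 cells from S2, 7 from S3, 5 from S1 and 3 each from H3 and H4. A cluster of 43 cells was led by Mir6236 and held Top2a, a topoisomerase of dividing cells, Slfn4 and Hes1 among its leading genes. The last, of 41 cells, 26 of them from S1, was led by Gm26917 and Igkv3-7 and held Rn7sk, Rpph1 and the mitochondrial genes mt-Nd2 and mt-Co1. In no cluster did the plasmacytoid core list exceed 163 CPM or the type 1 list 206. The clusters, like the lists, went against the name dendritic cells, and the cells are therefore called by the label only. Resolution changed the division, with 5 clusters at a lower and 16 at a higher setting and adjusted Rand indices of 0.697 and 0.541.

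To ask whether arthritis changed the labelled cells, their UMIs were summed per mouse and healthy mice H3, H4 and H7 were compared with the 6 CIA mice. H6, with 1 cell, was left out. Only 99 genes had enough counts, and 0 of them (0.0% of genes tested) passed the edgeR quasi-likelihood test at an adjusted p of 0.05, while 6 (6.06%) had an unadjusted p below 0.05 and DESeq2 called 4. None of the plasmacytoid, conventional, migratory, costimulatory, stem cell or nucleic acid sensing genes was among the 99, so nothing can be said of them in either direction. Fewer cells of a type and less RNA per cell cannot be told apart in such sums. The genes named next had the smallest p and did not pass.

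Haemoglobin genes showed the widest separation. Hbb-bs stood at 4133 CPM in H3, 18099.5 in H4 and 968 in H7. In CIA mice it was 48354 in S3, 51739 in S6, 82566 in S1, 83426 in S2, 156797 in S5 and 219874 in S8. The groups did not overlap, which held for 10.1% of the 99 genes in either direction and for 4.04% in this one. The log2 fold change was 4.08 (SE 0.92, edgeR adjusted p = 0.0516). Hba-a1, an alpha-globin gene, had a log2 fold change of 3.83 (SE 0.90, edgeR adjusted p = 0.0516) and Hbb-bt, the other adult beta-globin gene, 3.53 (SE 0.91, edgeR adjusted p = 0.0676). Hbb-bh1, an embryonic globin gene of the same locus, had no UMI in the healthy mice and 138 to 3643 CPM in CIA mice (edgeR adjusted p = 0.315). It passed the count filter only through the CIA mice, so its fold changes rest on no measured healthy level. In single healthy mice 3 UMIs correspond to 219 CPM in H4, 775 in H3 and 1452 in H7, which lies above the lowest CIA value. The haemoglobin genes have near-identical copies, so reads may be split among them. With the label 2CIA or CIA as a term, 4 haemoglobin genes passed (Hba-a1, Hbb-bs and Hbb-bt among them, log2 fold changes from 3.82 to 9.18), and among mice labelled CIA 5 did. Hbb-bs kept its direction in every alternative and passed in 12 of 20. Its log2 fold change was 4.18 without S2 (edgeR adjusted p = 0.0255), 3.96 without H3 (edgeR adjusted p = 0.477), 3.67 without H7 (edgeR adjusted p = 0.177) and 2.82 with H4 as the only healthy mouse, where at least 10 cells were required (edgeR adjusted p = 0.724).

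The haemoglobin list was also measured in other spleen cells, without a test. Its mean in NK cells was 27653 ± 24468 CPM (SD, n = 6 CIA mice) against 7755 ± 9001 (SD, n = 4 healthy mice), and in erythrocytes 192950 ± 70264 (n = 6) against 135109 ± 35447 (n = 3). In both types the groups overlapped. In NK cells S5, S6 and S8, at 6257 to 10204 CPM, lay below H4 at 20195, and S1, S2 and S3 at 34037 to 67522 above it, while in erythrocytes S3 and S8 lay below every healthy mouse. In labelled cells it was 152474 ± 101268 (n = 6) against 11503 ± 13507 (n = 3). The part of free RNA, or of red cells under the label, in the difference was not tested. Cells rich in haemoglobin were 2 of 29 labelled cells in healthy mice, both in H4.

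Ifi27l2a, an interferon-induced mitochondrial protein, had 0 UMIs in H3, 73.0 CPM in H4 and 968 in H7, against 364 in S8, 429 in S3, 1179 in S1, 1304 in S6, 1609 in S2 and 1854 in S5. H7 lay inside the CIA range, on 2 UMIs, and the log2 fold change was 3.03 (SE 1.01, edgeR adjusted p = 0.26). It was the only tested gene of the 23 on the interferon response list. That list summed to 592 ± 344 CPM in 3 healthy mice and 2485 ± 1146 in 6 CIA mice, with 968 in H7 and 1179 in S3 the nearest values, and in monocytes to 616 ± 215 (n = 4) and 3439 ± 945 (n = 6). Rsad2, the antiviral protein viperin, contributed 111 UMIs, of which 1 was in a healthy mouse. Healthy mice held 20662 of the 278611 UMIs of labelled cells. Of the Rsad2 UMIs, 58 lay in the cluster led by haemoglobin genes, at 1372 CPM against 224 in the other labelled cells. Its mean was 328 CPM in labelled cells and 200 in erythrocytes. Fos, an immediate early transcription factor, was at 1752 to 1936 CPM in healthy mice and 322 to 932 in CIA mice, with no overlap and a log2 fold change of -1.16 (SE 0.43, edgeR adjusted p = 0.315). All 3 tested genes of the immediate early and heat shock list had negative log2 fold changes (median -0.64), and the median of all genes tested was 0.01.

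Granulocyte genes showed no common direction, with 6 of 10 tested, 3 above and 3 below 0, and a median log2 fold change of -0.00. S100a8 had a log2 fold change of -0.26 (SE 0.52, edgeR adjusted p = 0.975). Camp was at 11883 CPM in H3, 4087 in H4 and 9681 in H7, above the 695 to 1957 of S5, S6 and S8 and beside the 4717 to 5508 of S1, S2 and S3. With the label 2CIA or CIA as a term Camp passed as lower in CIA mice (log2 fold change -1.53, SE 0.39, edgeR adjusted p = 0.0362). MHC class II genes were tested for Cd74, H2-Aa and H2-Ab1, with log2 fold changes from -0.42 to -0.22. Elane, the only tested progenitor gene, had a log2 fold change of 0.58 (SE 1.46, edgeR adjusted p = 0.995).

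Among CIA mice, score 8 (S1, S2 and S3) was compared with lower scores (S5, S6 and S8), and with it the label 2CIA with CIA. Of 86 genes tested, 5 passed the edgeR test (5.81%), 3 of them higher (3.49%) and 2 lower (2.33%). None of these 5 overlapped between the groups, which held for 22.1% of the genes tested. All 3 that rose were granulocyte genes, of 5 tested from that list of 10, whose median log2 fold change was 1.73 against -0.04 over all genes tested. Wfdc21, a secreted protease inhibitor family member of neutrophils, was at 1483 to 1715 CPM in S1, S2 and S3 and at 116 to 455 in the other mice (log2 fold change 2.31, SE 0.42, edgeR adjusted p = 0.0162). Ngp was at 3116 to 5039 against 232 to 1413 (log2 fold change 2.05, SE 0.50, edgeR adjusted p = 0.0277). Camp was at 4717 to 5508 against 695 to 1957 (log2 fold change 1.73, SE 0.39, edgeR adjusted p = 0.0238). S100a8 and S100a9 had log2 fold changes of 1.06 and 1.13 and did not pass (edgeR adjusted p = 0.237 and 0.188). Ddx5, an RNA helicase, fell, from 1002 to 1304 CPM in mice with lower scores to 429 to 628 at score 8 (log2 fold change -1.24, SE 0.27, edgeR adjusted p = 0.0238). Hbb-bh1 fell from 1196 to 3643 to 138 to 643 (log2 fold change -2.77, SE 0.64, edgeR adjusted p = 0.0238), and the 3 tested genes of the haemoglobin list had log2 fold changes from -1.69 to -1.21 without passing. Rpl13, a ribosomal protein gene, had the next smallest p (log2 fold change -1.08, SE 0.35, edgeR adjusted p = 0.131).

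The calls at this size rested on single libraries. Without S5, which gave 9 cells, no gene passed, without S8 only Wfdc21 did, and without S3 there were 16, of which 4 were among the first 5. With the genes of the haemoglobin and granulocyte lists left out, 0 of 75 genes passed in edgeR and 5 had an unadjusted p below 0.05, with Ddx5 at a log2 fold change of -1.17 and Hbb-bh1 at -2.70 (edgeR adjusted p = 0.0758 for both). Granulocyte transcripts moved the same way in other cells of these mice. S100a8 in NK cells was at 7892 to 19110 CPM in S1, S2 and S3 and at 1845 to 2203 in S5, S6 and S8, and its part in the difference was not tested. The Mpo, Fcnb and Elane UMIs of the CIA mice lay almost wholly at score 8, with 1 Elane UMI and none of Mpo or Fcnb in S5, S6 and S8 together. Score 8 mice also held 229141 of the 257949 UMIs of labelled cells in CIA mice. None of the 3 genes passed the count filter of the main fit. With no filter, where the median log2 fold change of all genes was 1.43, all 3 were called higher at score 8. The edgeR adjusted p was 0.000185 for Fcnb, 0.000755 for Elane and 0.0113 for Mpo. Without S1, Elane passed the count filter through S2 (1202 CPM) and S3 (1608 CPM). It was then called (log2 fold change 4.83, edgeR adjusted p = 0.0182). The mouse left out had the lowest Elane at score 8, at 304 CPM. As these 3 genes have almost no UMIs at lower scores, these calls add nothing to the counts above.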

How the data were processed

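The deposited table held UMI counts per gene and cell. According to the study's methods, the authors aligned Seq-Well reads to GRCm38 with STAR and Drop-seq tools, kept cells within limits on reads, transcripts, genes and mitochondrial share, and named cell types from denoised counts. Deposited counts were summed per mouse over the labelled cells. Mice with at least 3 such cells were compared with edgeR 4.0.16 (quasi-likelihood, TMM factors, filterByExpr, Benjamini-Hochberg adjusted p of 0.05) in R 4.3.3, and with DESeq2 1.42.0 as an alternative. In simulated counts edgeR recovered 93.3% of 15 genes changed by 2 on the log2 scale for CIA against healthy, with 93 genes tested, and 12.5% of its calls there were false. For score 8 against lower scores 13.6% were false among calls at a change of 3. The simulation gave every gene the same fixed spread between mice, which was not fitted to these data. Its rates therefore do not give the power of the test on the real sums. CPM use the total of all UMIs of a sum. List shares count cells with 2 or more UMIs, as deposited and thinned to 400 UMIs. Clusters came from scanpy 1.11.5 (Leiden, 1000 variable genes, 15 components, 15 neighbours). They and the 5% limit were chosen after the data were seen.

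Members, lists and tests were chosen with earlier results of these data known. Gene lists, 28 in all, were written from textbook markers. Named genes were the label markers, up to 4 genes with most UMIs from each dendritic, progenitor or cycling list and up to 2 from other lists, the 12 with the highest ratio to other types, and up to 12 passing genes with groups that did not overlap, filled to 6 by smallest p. Others were named where a count was small. Labels do not say that a number pairs mice across groups, and each mouse is a separate animal.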

Additional observations from a re-analysis of the deposited data

Results flagged for a closer look

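MHC class II genes in the labelled cells of S3 stood at 3002 CPM, which was far below the other 5 CIA mice in relation to their range. It was the only value of a single mouse that stood apart in this way among the 23 groups examined. Chance alone gives about 1 in 20 groups, so 1 such value among 23 is not unusual.

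Spleen cells that carried no deposited type enter none of the comparisons. Their granulocyte genes stood at 110614 CPM in S1, 154753 in S2 and 144758 in S3, above the highest healthy mouse at 38214. The other CIA mice were lower. In the same cells S100a8, a gene of this list, was at 6656 CPM in S5, 4584 in S6 and 1365 in S8. In healthy mice it was at 25386 in H3, 3011 in H7, 2632 in H4 and 332 in H6. H3 carries the same label as S1, S2 and S3. Whether these levels go with arthritis or with that label was not tested.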

How the results depend on the processing

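The difference in the share of labelled cells kept its direction in all 15 alternatives and passed the exact permutation test in 4 of them, which were the share without B cells (11.1 percentage points), the log2 share (1.98 on the log2 scale) and 2 of the fits that left out a mouse, over all of which it ran from 6.11 to 10.4. With the replicate number as a block, which is shared by H3 with S3 and by H6 with S6 and marks no common origin in the labels, the difference was 7.35 percentage points (exact permutation p = 0.5). For genes, no paired analysis was possible because only number 3 was shared among mice with at least 3 labelled cells. The calls of CIA against healthy numbered 4 with DESeq2, 1 of 13906 with no filter, 3 with mice of at least 1 cell, 5 with the label 2CIA or CIA as a term, 6 among mice labelled CIA and 1 among those labelled 2CIA, an alternative chosen after seeing the data, 0 with RLE factors, plain library sizes or mice of at least 5 or 10 cells, and 0 to 4 with each mouse left out. The calls of score 8 against lower scores numbered 8 with DESeq2, 14 of 13561 with no filter, 0 with mice of at least 10 cells, 0 without the haemoglobin and granulocyte list genes, also chosen after seeing the data, and 0 to 16 with each mouse left out. With no filter Ddx5 and Rpl13 turned from negative to log2 fold changes of 0.0792 and 0.191, and the median of all genes was 1.43 there. The cause of these changes was not tested. Of 198 alternative fits of named genes, 141 kept direction and call.

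Cells with transcripts of the plasmacytoid core list were 5.93% at 1 UMI or more and 0.0% after thinning, those of the type 1 list 9.97% at 1 UMI, 0.0% at 3 UMIs and 0.0% after thinning, and those of the progenitor list 30.7% at 1 UMI, 11.1% at 3 UMIs and 11.6% after thinning. Healthy mice gave 29 labelled cells in all, which limits every comparison with them. The total UMIs of H3 and H7 allow no statement on genes below about 775 and 1452 CPM.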
